A study of Mus musculus with 7 samples.

Results

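The genes described here are 10 genes of the reelin pathway and of neuronal migration. They were chosen by name, as the reelin receptors Vldlr and Lrp8 with their adaptor Dab1, the lissencephaly genes Pafah1b1 and Dcx, the LIS1 partners Ndel1 and Nde1, the kinase Cdk5 with its activator Cdk5r1, and the small GTPase Rnd2. All 10 were found among the 25239 genes of the authors' deposited table, and all 10 passed the table's filter on low counts, which left 14638 tested genes.

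The values come from sequencing of polyadenylated RNA from the electroporated cortex of 7 wild-type C57BL/6J mouse embryos, electroporated in utero at E13.5 and collected at E15.5. The 3 edited brains received Breasi-CRISPR reagents for Ccnd2 Thr280Ala, and the 4 control brains received a Breasi-CRISPR silent control. Every one of the 3 litters held an edited brain and a control, and litter 1 held 2 controls. Both groups therefore went through electroporation with CRISPR reagents. The sources used here do not name the base change of the silent control. Electroporation reaches only part of the cells, so each sample is a mixture of transfected and other cells, and the edited share was not measured here. The reads counted to genes were estimated at 19400000 to 32800000 per library. The authors' deposited table gives 1 mean and 1 fold change per gene and no value per brain, so single brains cannot be shown and an overlap of the groups cannot be examined.

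Reelin is a large glycoprotein that Cajal-Retzius cells secrete at the surface of the embryonic cortex. It binds the lipoprotein receptors VLDLR and APOER2 (the product of Lrp8) on migrating neurons, and SRC family kinases then phosphorylate DAB1 on the receptor tails. Neurons need this signal to settle in the right layer. Movement itself depends on microtubules and dynein. LIS1, the product of Pafah1b1, works with NDEL1 and NDE1 on the dynein motor that pulls the nucleus forward, doublecortin stabilizes microtubules, and CDK5 with its activator p35 phosphorylates several of these proteins. Loss of LIS1 or doublecortin function causes lissencephaly, a smooth cortex with misplaced neurons, in people.

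A few short coding sequences are shown because they mark the edit and the point at which both receptors meet Dab1. The edit targets codon 280 of Ccnd2, which encodes cyclin D2, at chromosome 6, 127130365 to 127130367 (GRCm38, minus strand). Codons 275 to 285 of the reference read as follows, with codon 280 in capitals.
Ccnd2: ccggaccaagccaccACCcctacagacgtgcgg
DAB1 binds an NPxY motif, named by its amino acids, in the cytoplasmic tail of either receptor. The coding sequence of that motif is in capitals below, with 15 bases on each side. In Vldlr it is codons 834 to 837 of 873, on the plus strand of chromosome 19, 27247940 to 27247951. In Lrp8 it is codons 896 to 899 of 996, on the plus strand of chromosome 4, 107869061 to 107869072.
Vldlr: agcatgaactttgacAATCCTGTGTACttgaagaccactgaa
Lrp8: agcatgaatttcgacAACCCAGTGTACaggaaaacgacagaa
The receptors were identical at 33 of these 42 bases. Over the whole coding sequence they were identical at 62.3% of aligned bases, and the longest run they shared was 19 bases.

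The comparison of edited with control brains asked how expression differed 2 days after electroporation with the reagents for the Ccnd2 edit. Of the 10 genes, 0 were called by the deposited DESeq2 Wald test at an adjusted p below 0.05, and each had an adjusted p of 0.999 in the authors' deposited table. Over all 14638 tested genes, 36 were called, a share of 0.246%. At an unadjusted p under 0.05, 0 of the 10 genes and 858 of all tested genes (5.86%) passed. The log2 fold changes, positive where the edited brains were higher, ran from -0.09 for Vldlr to 0.12 for Nde1 in the authors' deposited table, with 5 above 0 and 5 below. Their median was -0.02, beside -0.01 over all tested genes, of which 48.0% were above 0. The smallest p of the 10 belonged to Lrp8 (unadjusted p = 0.311, authors' deposited table), and 30.4% of all tested genes had a Wald statistic at least as far from 0.

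The errors bound what size of change these data allow. Over the 10 genes, the 95% intervals of the fold change (edited over control) reached from 0.790, the lower bound of Rnd2, to 1.31, the upper bound of Nde1. A 2-fold change in either direction lay outside the interval of each of the 10 genes. The smallest Wald statistic among called genes was 3.85 in size. With its own standard error (SE), each gene would have had to differ by 0.23 (Pafah1b1) to 0.54 (Nde1) on the log2 scale to be called, so smaller differences could not have been called in these 7 brains. These bounds apply to the average over the tissue, since a change in the transfected cells alone is diluted by the other cells.

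**Figure D1:**
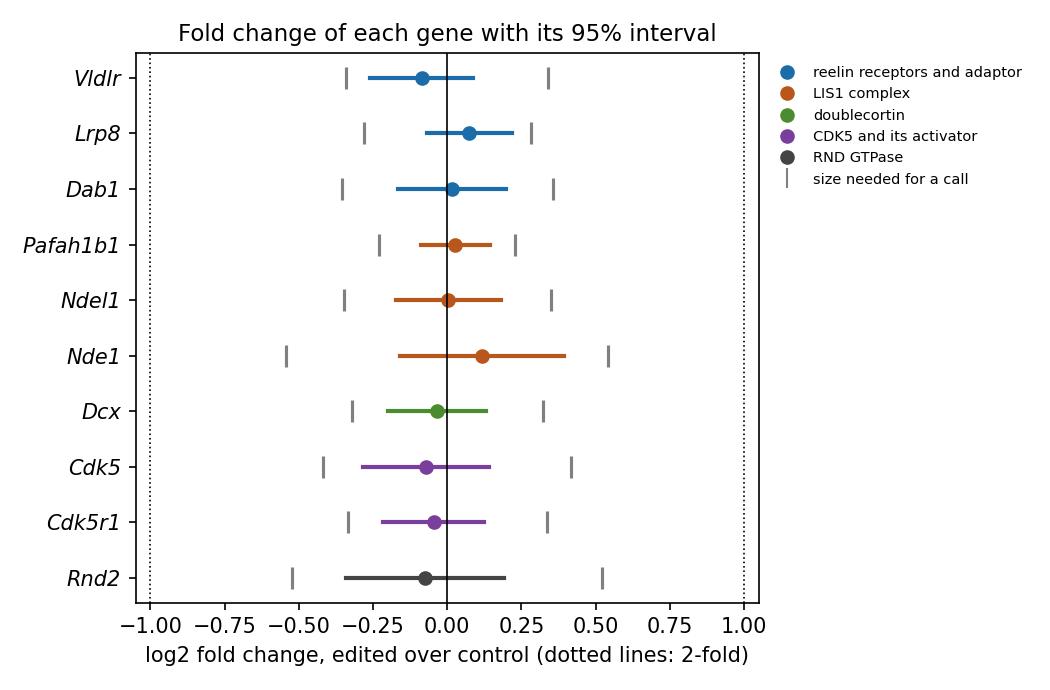
Log2 fold change of each gene, edited over control, from the authors' deposited table (points), with its 95% interval (coloured bars) and the size that its SE would need for a call (grey ticks). Every bar crosses 0 and lies inside the grey ticks and the dotted lines at a 2-fold change.

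All 10 transcripts were well detected in this tissue. The mean normalized count over the 7 brains, which is a pooled value with no spread, ran from 1149 for Ndel1 to 45287 for Dcx in the authors' deposited table. Levels of different genes were compared per kilobase of exon, with exon lengths from GENCODE M21. Cdk5r1, Dcx and Rnd2 stood highest, at 4072, 3581 and 3316 normalized counts per kilobase, and at most 1.65% of tested genes had a higher level per kilobase than any of these 3 genes. Pafah1b1 had 1026, Dab1 938 and Lrp8 696 normalized counts per kilobase. Nde1 and Cdk5 followed at 572 and 566, Ndel1 had 353 and Vldlr 156, beside a median of 127 over 14347 tested genes with a GENCODE length. The order depends on the length used. Divided by the longest transcript that holds the longest coding sequence, Dcx came first at 4991, Rnd2 had 4734 and Cdk5r1 4072 normalized counts per kilobase, and Lrp8 moved to 2224, above Pafah1b1 and Dab1. Without values per brain, neighbours in this order cannot be tested against their spread.

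**Figure D2:**
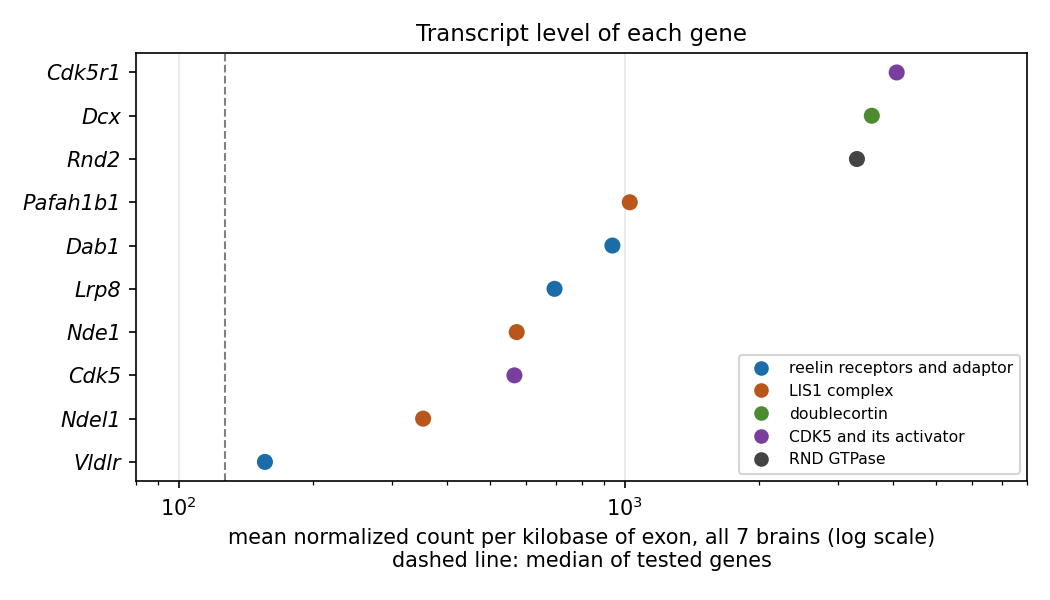
Mean normalized count per kilobase of exon for each gene over all 7 brains, on a log axis, with the median of tested genes as a dashed line. Cdk5r1, Dcx and Rnd2 form a group from 3316 to 4072, and Vldlr lies closest to the median of 127.

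Both reelin receptors and the adaptor were present, with Lrp8 above Vldlr. Lrp8 (chromosome 4, 107802261 to 107876840) exceeded Vldlr (chromosome 19, 27216484 to 27254231) by 4.46-fold per kilobase of exon and by 11.3-fold per kilobase of the coding transcript. The second ratio is larger because of the lengths used. The coding transcript of Lrp8 has 3291 bases, against 10514 bases of exon, and that of Vldlr 7971, against 10068. Vldlr had a mean of 1571 normalized counts and a log2 fold change of -0.09 (SE 0.09, unadjusted p = 0.335) in the authors' deposited table. The 95% interval of its fold change was 0.836 to 1.06. Lrp8 had a mean of 7318 normalized counts and a log2 fold change of 0.07 (SE 0.07, unadjusted p = 0.311) in the authors' deposited table, with a 95% interval of the fold of 0.953 to 1.16. The point values of the receptors lay on opposite sides of 0, but each interval held 0, and the difference between the receptors was not tested. Dab1, the intracellular adaptor (chromosome 4, 103619359 to 104744844), had a mean of 7421 normalized counts and a log2 fold change of 0.02 (SE 0.09, unadjusted p = 0.857) in the authors' deposited table. Its interval was 0.892 to 1.15. Reln, the ligand (chromosome 5, 21884454 to 22344702), is no member of the set but bears on it. In the authors' deposited table its log2 fold change was -0.20 (SE 0.41, adjusted p = 0.999), with a 95% interval of the fold of 0.498 to 1.51. The fold change of the ligand was thus much less well bounded than those of its receptors.

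The LIS1 complex genes gave the narrowest and the widest errors of the set. Pafah1b1 (chromosome 11, 74673949 to 74724670), the gene of LIS1, had a mean of 9874 normalized counts and a log2 fold change of 0.03 (SE 0.06, unadjusted p = 0.646) in the authors' deposited table. Its 95% interval of the fold was 0.940 to 1.11, the narrowest of the 10 genes. Ndel1 and Nde1 encode paralogous coiled-coil proteins that link LIS1 to dynein, and NDE1 is best known for its role in dividing progenitors. Ndel1 (chromosome 11, 68821434 to 68871858) had a mean of 1149 normalized counts and a log2 fold change of 0.00 (SE 0.09, unadjusted p = 0.972) in the authors' deposited table, with an interval of 0.886 to 1.13. Nde1 (chromosome 16, 14163275 to 14192928) had a mean of 1835 normalized counts and a log2 fold change of 0.12 (SE 0.14, unadjusted p = 0.410) in the authors' deposited table. That is the value farthest from 0 among the 10 genes, and its interval, 0.895 to 1.31, still held 1. Per kilobase of exon, Nde1 exceeded Ndel1 by 1.62-fold. The coding sequences of the paralogs were identical at 65.3% of aligned bases, and the longest run they shared, shown here because it limits which reads could fit both genes, was 18 bases.
Nde1 and Ndel1: gagttccaggaaggaagc
Ndel1 shared 0 of its 50-base words with transcripts of any other gene in GENCODE M21, and Nde1 shared 0.839%. Nde1 overlaps Marf1 on the opposite strand over 77 exonic bases, and Marf1 stood at 0.00 (SE 0.09) in the authors' deposited table.

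Dcx, the gene of doublecortin (chromosome X, 143855842 to 143933311), was the most abundant of the 10 transcripts. It marks newborn and migrating neurons. Its mean was 45287 normalized counts, with 0.143% of tested genes more abundant, and its log2 fold change was -0.03 (SE 0.08, unadjusted p = 0.684) in the authors' deposited table. The 95% interval of its fold change was 0.872 to 1.09.

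Cdk5 and Cdk5r1 encode a kinase and p35, one of its neuronal activators. Cdk5r1 (chromosome 11, 80477023 to 80481184), a gene of 1 exon, stood 7.20-fold above Cdk5 (chromosome 5, 24418241 to 24423530) per kilobase of exon. Cdk5 had a mean of 1227 normalized counts and a log2 fold change of -0.07 (SE 0.11, unadjusted p = 0.510) in the authors' deposited table, with a 95% interval of the fold of 0.821 to 1.10. Cdk5r1 had a mean of 16947 normalized counts and a log2 fold change of -0.05 (SE 0.09, unadjusted p = 0.598) in the authors' deposited table. Its interval was 0.861 to 1.09, so neither the kinase nor its activator differed beyond the error.

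Rnd2 encodes a small GTPase that the proneural factor NEUROG2 induces in newborn mouse cortical neurons and that is needed for their radial migration. The gene (chromosome 11, 101464999 to 101471853) had a mean of 6600 normalized counts and a log2 fold change of -0.07 (SE 0.14, unadjusted p = 0.581) in the authors' deposited table. Its interval, 0.790 to 1.14, reached lower than that of any other of the 10 genes. Of its exonic bases, 226 (11.4%) overlap Vat1 on the opposite strand, and without the strand setting of the counting, reads there cannot be assigned to either gene. Rnd2 also shared 2.22% of its 50-base words with Gm4768, while each of the other 9 genes shared at most 0.952% of them with all other genes. Vat1 stood at -0.01 (SE 0.10) in the authors' deposited table.

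Abundance set only part of the error of each fold change. The SE of Rnd2 was 1.76 times, and that of Nde1 1.49 times, the median of genes within 2-fold of the same mean. Only 2.69% of the 1564 genes near Rnd2 and 7.45% of the 4281 genes near Nde1 had a higher SE. Dab1, Cdk5r1 and Dcx had ratios of 1.22, 1.21 and 1.18, and Cdk5 of 1.03. Lrp8, Vldlr, Ndel1 and Pafah1b1 lay below their neighbours' median, at ratios of 0.962, 0.898, 0.839 and 0.798. Reln had a ratio of 5.28 and Ccnd2, at a log2 fold change of 0.08 (SE 0.25, authors' deposited table), of 3.65.

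**Figure D3:**
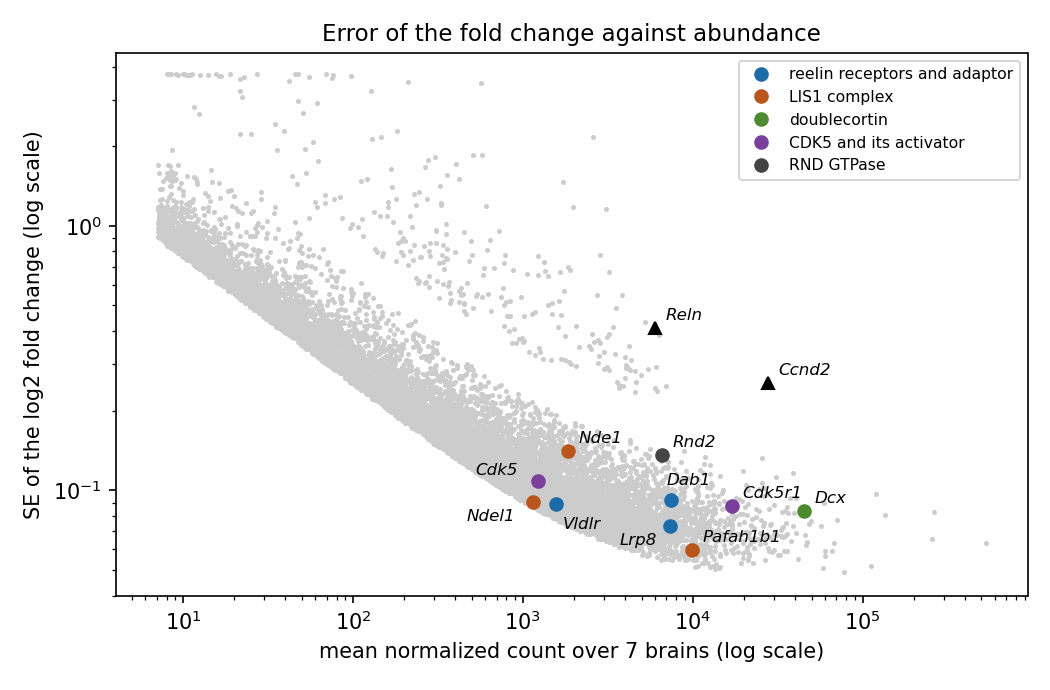
SE of the log2 fold change against the mean normalized count, both on log axes, for all tested genes (grey), the 10 genes (coloured) and, for reference, Reln and Ccnd2 (triangles). The 10 genes lie within the main band of genes, Rnd2 and Nde1 near its upper side, while Reln and Ccnd2 lie far above it.

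The wider pathway was read from lists of other genes. Of 31 other reelin pathway genes, 0 were called, 13 lay above 0 and 18 below, and the median log2 fold change was -0.01. At an unadjusted p under 0.05 there were 4 higher and 1 lower of the 31, beside 5.86% of all tested genes. In the authors' deposited table the lower one was Mylip, a ubiquitin ligase that degrades VLDLR and APOER2, at -0.76 (SE 0.24, adjusted p = 0.202). The authors' deposited table put Crkl, an adaptor recruited by phosphorylated DAB1, at 0.18 (SE 0.06, adjusted p = 0.335). Thbs1, a secreted protein that binds both receptors, was at 0.29 (SE 0.12, adjusted p = 0.648) by the authors' deposited table.

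Of 22 genes of dynein, dynactin and other LIS1 partners, 0 were called, 6 lay above 0 and 16 below, with a median of -0.02. At an unadjusted p under 0.05 there were 1 higher and 2 lower of the 22, beside 5.86% of all tested genes. In the authors' deposited table, Dync1i1, a dynein intermediate chain of neurons, stood at -0.34 (SE 0.13, adjusted p = 0.446). Pafah1b2, a catalytic subunit of the platelet-activating factor acetylhydrolase that LIS1 also belongs to, stood at 0.14 (SE 0.06, adjusted p = 0.717) by the authors' deposited table. The dynein light chain Dynll2 was at -0.17 (SE 0.08, adjusted p = 0.790) by the authors' deposited table. Of 15 doublecortin-like kinases and neuronal microtubule genes, 0 were called, 0 had an unadjusted p under 0.05, and 7 lay above 0, with a median of -0.02. In the authors' deposited table the smallest p values belonged to Mapt, the gene of tau, at -0.20 (SE 0.11), the gamma-tubulin Tubg1 at 0.16 (SE 0.10) and Dclk1 at -0.10 (SE 0.08).

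Of 13 other CDK5 activators, binding partners and substrates, 0 were called and 5 lay above 0, with a median of -0.02. At an unadjusted p under 0.05 there was 1 of the 13, which was lower, beside 5.86% of all tested genes. In the authors' deposited table, Cdk5r2, which encodes p39, the other neuronal activator of CDK5, stood at -0.47 (SE 0.14, unadjusted p = 0.00101, adjusted p = 0.173). Next by p in the authors' deposited table were the guanine nucleotide exchange factor Trio at -0.11 (SE 0.08) and the CDK5-binding protein gene Cables2 at -0.12 (SE 0.09). Of 19 other RND genes and radial migration genes, 0 were called, 15 lay above 0, and the median was 0.07. At an unadjusted p under 0.05 there were 3 of the 19, all higher, beside the same 5.86% of all tested genes. The authors' deposited table put Prag1, which encodes pragmin, an effector of RND2, at 0.37 (SE 0.12, adjusted p = 0.204). The authors' deposited table also put Neurog2 at 0.24 (SE 0.10, adjusted p = 0.623) and the GTPase-activating protein gene Arhgap5 at 0.16 (SE 0.07, adjusted p = 0.691).

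**Figure D4:**
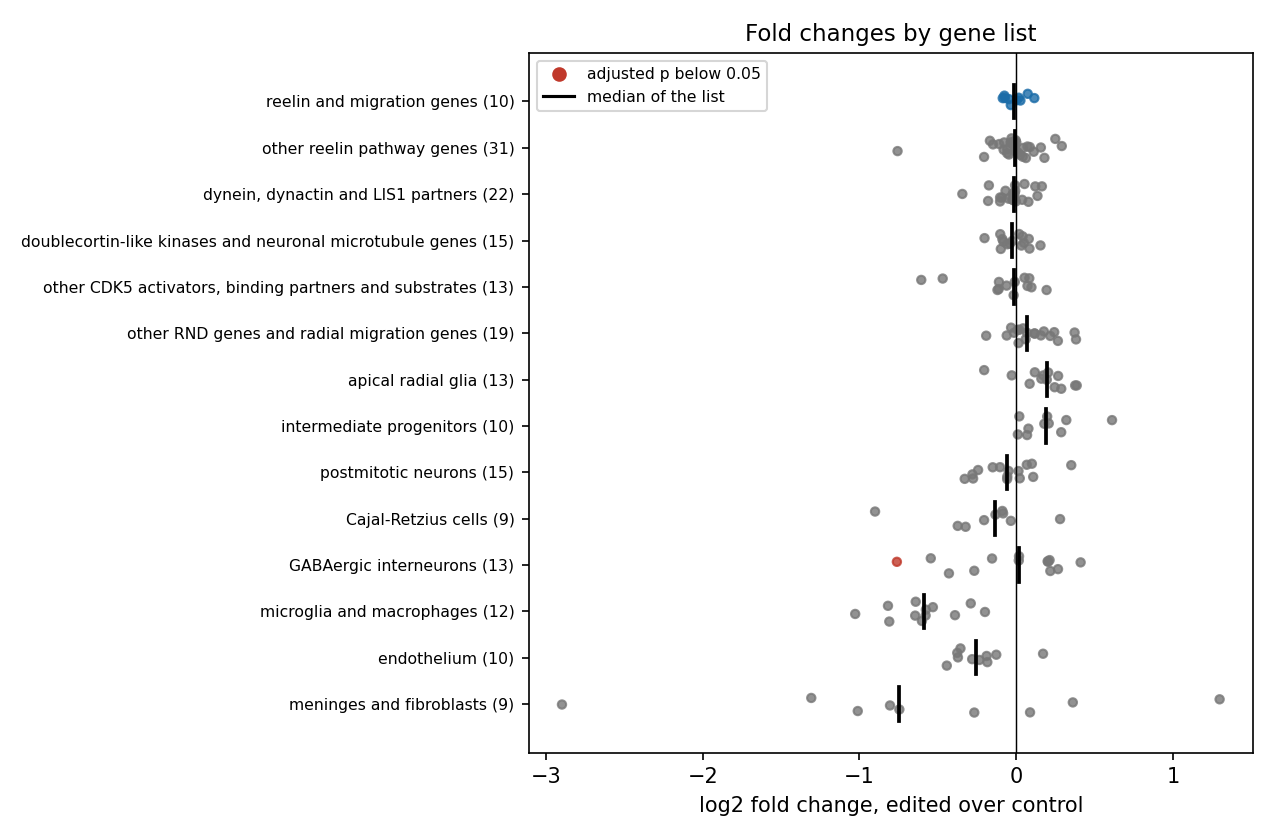
Log2 fold change, edited over control, of each tested gene in the set, in 5 lists of related genes and in 8 lists of cell markers (points; red where the adjusted p is below 0.05), with each list's median as a black line. The 10 genes span -0.09 to 0.12, and Npy among the interneuron markers is the only red point. With a t distribution of 3 degrees of freedom, which raises every p by construction, this call is lost, as is every other call over all genes.

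In a tissue of many cell types, fewer cells of a type and less RNA per cell cannot be told apart. Neurod6 and Neurod2, transcription factors of cortical excitatory neurons, were abundant in the authors' deposited table, at means of 20978 and 17026 normalized counts, as was Eomes, of intermediate progenitors, at 6480. Markers of progenitors stood above 0, with 11 of 13 apical radial glia genes (median 0.20) and 10 of 10 intermediate progenitor genes (median 0.19). Of 15 genes of postmitotic neurons, 9 lay below 0, with a median of -0.06. None of these 3 lists held a called gene. At an unadjusted p under 0.05 there were 5 of 13 radial glia genes and 4 of 10 intermediate progenitor genes, all higher, and 4 of 15 neuronal genes, all lower, beside 5.86% of all tested genes. Beside these, the 10 genes stood at -0.09 to 0.12, with 5 above 0 and 5 below, each with an interval that held 0. The part of cell makeup in these values was not tested.

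Markers of other cell types were read the same way. Of 9 markers of Cajal-Retzius cells, the source of reelin, 8 lay below 0, with a median of -0.13. Of these markers, 0 were called and 0 had an unadjusted p under 0.05. Reln is counted both here and among the 31 other reelin pathway genes. Of 13 interneuron markers, 8 lay above 0, with a median of 0.02. Among them, the neuropeptide gene Npy was called and fell by 0.76 (SE 0.19, adjusted p = 0.0287, authors' deposited table). With a t distribution of 3 degrees of freedom for the Wald statistic, this call and the other calls over all genes were lost (0 of 14638). The heavier tails of that distribution raise every p by construction, so this loss does not set Npy apart from the other calls. All 12 markers of microglia and macrophages lay below 0 (median -0.59, 0 called, 6 at an unadjusted p under 0.05), as did 9 of 10 endothelial markers (median -0.26, 0 called, 2 at an unadjusted p under 0.05) and 6 of 9 markers of meninges and fibroblasts (median -0.75, 0 called, 1 at an unadjusted p under 0.05). Every marker in these lists was detected, and the lowest mean was 45.3 normalized counts, for Foxc2 of the meningeal list. In the Cajal-Retzius, interneuron and meningeal lists, the median log2 fold change was smaller in size than the median SE of the list. Such an SE is that of a single gene and does not measure the error of a list median. The median SE was 0.21 for Cajal-Retzius cells, 0.50 for interneurons, 0.31 for microglia and macrophages, 0.15 for endothelium and 1.18 for meninges and fibroblasts. The part of these cells in the values of the 10 genes was not tested.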

How the data were processed

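Polyadenylated RNA of 7 brains was measured, 3 edited and 4 control. Per the submitters' processing notes, cutadapt, featureCounts, DESeq2 and build mm10 were used. The sources used here do not give versions, aligner, annotation, strand setting or the handling of reads that match several genes. The only file is a table of 1 comparison, named as made with litters, and it was used as deposited. The mean normalized count is a signal deposited by the authors, the mean of counts divided by size factors. Log2 fold changes and SEs are on the log2 scale, per the file headers. The authors deposited the Wald statistic as a score. The p-value and adjusted p-value are the authors' deposited values. Recomputed Benjamini-Hochberg values were within 4.01e-05 of those deposited. The SEs cover the spread between embryos that is left after the litter term, which the fit holds going by the name of the comparison.

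The table gives the fold change with both signs. The direction was set from 694 genes with 1 read in 1 library, which form 7 classes of equal values. In the column used, 3 classes are above 0 and 4 below, as the 3 edited and 4 control brains require. Each class's mean is 1 over 7 times the library's size factor. The size factor times the summed means of all genes gave the reads counted to genes in each library.

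Intervals (95%) are the log2 fold change plus or minus 1.96 SE. Exon lengths, overlaps and sequences are from GENCODE M21 (GRCm38, the assembly that mm10 names), whose exons may differ from those counted. Python 3.11.15, pandas 2.3.3 and scipy 1.17.1 were used, and the adjustment was tested on simulated data. Named genes are the 10 genes and, in each list, called genes and the 3 with the smallest p, plus overlapping genes, but cell marker lists are given as counts, with the called gene named. Ccnd2, Reln, Neurod2, Neurod6, Eomes and Foxc2 were named besides. The genes and lists were chosen with earlier results of these data known.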

Additional observations from a re-analysis of the deposited data

How the results depend on the processing

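None of the 10 genes was called when p was adjusted over all 18976 genes with a p, over the 11356 genes with a mean of at least 100, with a t distribution of 3 degrees of freedom for the Wald statistic, or at a threshold of 0.1. Their lowest adjusted p under these alternatives was 0.990. For the 10 genes this outcome was fixed in advance. Their smallest unadjusted p by the deposited Wald test was 0.311, and an adjusted p is never below its unadjusted p. The t distribution only raises p. Under the same alternatives, all 5 related lists had 0 calls. The 36 calls over all genes became 31 and 34 with the 2 other adjustments, 57 at the threshold of 0.1 and 0 with the t distribution, whose heavier tails raise every p by construction and which also ended the call of Npy. By the deposited test, 858 genes had an unadjusted p under 0.05. Less the median of all tested genes (-0.01), 5 of the 10 genes lay above 0, and less the median of genes with a mean of at least 1000 (0.02), 3 did. The median of the 10 genes was then -0.01 and -0.04, and their mean weighted by the inverse squared SE was 0.00. The transcript length as divisor, chosen after seeing the data, changed the order of levels as described. Fits without a brain or without litter were not run, since the table has no values per library. The deposited fit already holds litter as a term, going by the table's name, so its fold changes compare brains within litters. No paired analysis was possible because a further fit would need values per library, which were not used here.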
